A study of Rattus norvegicus with 164 samples.

Results

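Ndrg3 and Ndrg3-ps1 were followed in 130 libraries of rat prelimbic cortex, a medial prefrontal region. They are the 2 genes of 38354 in the deposited expression table that carry the symbol Ndrg3 or that symbol with the suffix -ps1, and both lie on chromosome 3. The pair was chosen with values of this table in view, since Ndrg3-ps1 is among the genes with the widest spread between libraries, so its spread is a description and was not tested. The rats were heterogeneous stock animals, an outbred population descended from several inbred founder strains, and polyadenylated RNA was sequenced. Of 164 samples in the labels, 130 have a column in the table and were used. The labels divide these only by the kind of animal identifier: 68 libraries have a decimal number (the decimal series), 11 have a code beginning with E21DCD that was reassigned, and 51 have another code beginning with E21DCD (the E21DCD series). Treatment, sex, age and batch are not given in the sources used here, and each library was taken as 1 animal.

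NDRG3 belongs to a small family of proteins named after their link to the N-myc transcription factor, which share an alpha/beta-hydrolase-like fold. In human cells NDRG3 is known as a protein whose stability depends on oxygen: prolyl hydroxylase and the von Hippel-Lindau protein mark it for degradation, and lactate binding protects it and promotes signalling through Raf and ERK. A pseudogene is a copy of a gene, usually without its full function. RefSeq lists Ndrg3-ps1 under that name but with the type protein-coding.

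In the RefSeq annotation of GRCr8, Ndrg3-ps1 (gene ID 120101768) lies on the minus strand at chr3:165890090-165925107, and Ndrg3 (gene ID 296318) lies on the same strand at chr3:166007556-166070981. Their start sites are 145.9 kb apart. Between them lie LOC120101769 (chr3:165929053-165964135) and LOC120101770 (chr3:165968084-166003610), which have only locus numbers. Ndrg3-ps1 spans 35018 bp, LOC120101769 spans 35083 bp and LOC120101770 spans 35527 bp, and the gaps between the 4 loci are 3945, 3948 and 3945 bp. A further locus, LOC134486193, is annotated as a pseudogene at chr3:165849476-165887538, and was not analysed here.

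The first start-site window of each member is shown because the first windows of Ndrg3-ps1 and the loci between the members hardly differ from each other, while that of Ndrg3 is unlike them. Each holds 250 bases before and 50 bases after a start site, from RefSeq (GRCr8, minus strand, 5′ to 3′). The window of Ndrg3-ps1 is chr3:165925058-165925357, with 1 base in capitals, at which LOC120101769 differs. The window of Ndrg3 is chr3:166070862-166071161, with CG dinucleotides in capitals.
Ndrg3-ps1: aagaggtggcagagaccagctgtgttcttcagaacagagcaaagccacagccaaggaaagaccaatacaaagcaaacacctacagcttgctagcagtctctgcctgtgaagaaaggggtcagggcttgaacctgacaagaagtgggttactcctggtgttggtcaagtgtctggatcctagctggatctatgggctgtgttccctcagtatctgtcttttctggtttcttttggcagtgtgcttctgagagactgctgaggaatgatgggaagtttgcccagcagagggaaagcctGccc
Ndrg3: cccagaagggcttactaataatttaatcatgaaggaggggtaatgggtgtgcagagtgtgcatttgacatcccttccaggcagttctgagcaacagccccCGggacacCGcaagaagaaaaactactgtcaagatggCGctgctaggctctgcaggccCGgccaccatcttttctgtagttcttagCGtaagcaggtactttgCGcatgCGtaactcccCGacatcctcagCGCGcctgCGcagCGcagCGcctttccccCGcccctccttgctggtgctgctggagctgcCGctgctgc
The window of LOC120101770 (chr3:166003561-166003860) had the same 300 bases as that of Ndrg3-ps1. That of LOC120101769 (chr3:165964086-165964385) shared 299 of 300 bases with it and carried the change G297A, counted from 1 at the 5′ end of the window with the base of Ndrg3-ps1 first. Second windows of Ndrg3-ps1 and LOC120101770 were also the same over 300 bases. Ndrg3-ps1 and Ndrg3 had the same base at 81 of 300 positions when laid side by side without gaps. The start used for the Ndrg3 window lies 70 bp inside the annotated end of the gene.

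The window of Ndrg3 held 15 CG dinucleotides and that of Ndrg3-ps1 held 0, against a median of 7 over 33469 rat windows of this length. Searched on both strands, GGGCGG (a GC box) was found in the Ndrg3 window and not in that of Ndrg3-ps1, and it occurs in 33.1% of all windows. GCGCATGCG (the core recognised by NRF1) was likewise found in the Ndrg3 window alone of the 4 loci, and occurs in 1.52% of all windows. CCAAT was found in the windows of Ndrg3-ps1, LOC120101769 and LOC120101770 and not in that of Ndrg3, with 37.5% of all windows holding it. TATAAA (14.2% of all windows) and ACGTG, the core of a hypoxia response element (19.3%), were in none of the 4 windows. These are matches of letters in 1 window per locus.

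Values were turned back from the deposited log2 of the estimated count plus 1 and scaled to CPM, which are counts in a library scaled to a sum of 1000000. Summed estimated counts per library were 15.12 to 55.95 (median 25.8) in units of 1000000, so that Ndrg3 rested on 1401 to 19176 estimated counts and Ndrg3-ps1 on 134 to 14260. Some libraries stood apart. In 11 libraries, all of the decimal series, the mean of 10 striatal projection neuron markers exceeded that of 10 cortical glutamatergic markers; their Gad2 level, a marker of inhibitory neurons, was 7.48 to 8.34 on the log2(CPM + 1) scale. A further 7 libraries, 1 decimal and 6 E21DCD, lay at one end of the first principal component of the rest, with Gad2 at 2.37 to 4.27. In the other 112 libraries Gad2 was 5.14 to 6.52. Drd2, a dopamine receptor of striatal neurons, was 7.25 to 7.90 in the 11 libraries, 1.98 to 3.58 in the 7 and 1.94 to 4.65 in the 112. Slc17a7, a vesicular glutamate transporter of cortical neurons, was 2.75 to 8.83 in the 11, 9.58 to 11.1 in the 7 and 10.4 to 11.2 in the 112, so the 11 go against the tissue label. Results that rest on these 18 libraries are given with and without them. In bulk tissue, fewer cells of a type and less RNA per cell cannot be told apart.

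Ndrg3 had a lowest value of 54.3, a median of 282 and a highest value of 452 CPM over the 130 libraries. Ndrg3-ps1 had 4.24, 126 and 305 CPM. Expressed as the share of Ndrg3-ps1 in the summed counts of both genes, a share of counts that takes no account of transcript length, the values ran from 1.09% to 79.1% with a median of 30.3%. Library E21DCD 6 had the lowest share, with 385 CPM of Ndrg3 and 4.24 CPM of Ndrg3-ps1. Library decimal 15 had the highest, with 54.3 CPM of Ndrg3 and 205 CPM of Ndrg3-ps1, and it is 1 of the 7 libraries at the end of the component. That library also had the lowest median-of-ratios factor of the 130 (0.52), so its CPM depend on the scaling. The ends of a share are set by both genes, so these 2 libraries describe its range only. They do not show how the genes relate.

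The values of Ndrg3-ps1 did not form a continuous range. On the log2(CPM + 1) scale no library lay between 4.21 and 4.85 or between 6.02 and 6.68. A mixture model, whose normal components shared 1 variance and were added while the Bayesian information criterion (BIC) fell by at least 10, gave 2 levels, with means of 3.72 and 7.20. The low level held 22 libraries with 4.24 to 35.5 CPM (median 11.1), and the high level held 108 with 41.9 to 305 CPM (median 140). The border between them fell between 5.19 and 5.42 on the log2(CPM + 1) scale, in neither of the empty intervals given above. Another component, at 5.54, lowered BIC from 364.8 to 357.79, short of that limit. Of the libraries of each kind of identifier, 11 of 68 decimal, 1 of 11 reassigned and 10 of 51 E21DCD libraries were at the low level.

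Ndrg3 ran opposite to these levels, which were set from Ndrg3-ps1 alone. Where Ndrg3-ps1 was low, Ndrg3 was 214 to 452 CPM with a median of 388. Where Ndrg3-ps1 was high, Ndrg3 was 54.3 to 355 CPM with a median of 269. The 2 sets of Ndrg3 values overlapped between 214 and 355 CPM. The median sums of both genes were 396 CPM at the low level and 413 CPM at the high level. Within the low level the Pearson correlation of the log2 values was -0.67 (n = 22, permutation p adjusted over 2 levels by Benjamini-Hochberg = 0.00083, two-sided), but it was -0.36 without the 2 libraries farthest from the median, Spearman's rho was -0.22 (adjusted permutation p = 0.322), and without the 18 libraries that stood apart r was -0.32 (adjusted permutation p = 0.18). The relation within the low level therefore rested on few libraries. Within the high level r was -0.43 (n = 108, adjusted permutation p = 4e-05), rho was -0.50 (adjusted permutation p = 2e-05, based on the smallest p the permutations can give), and r was -0.42 without the 2 farthest libraries and -0.69 without the 18. The genes were paired with a relation of this kind in view, so these p-values are no independent support for it.

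**Figure D1:**
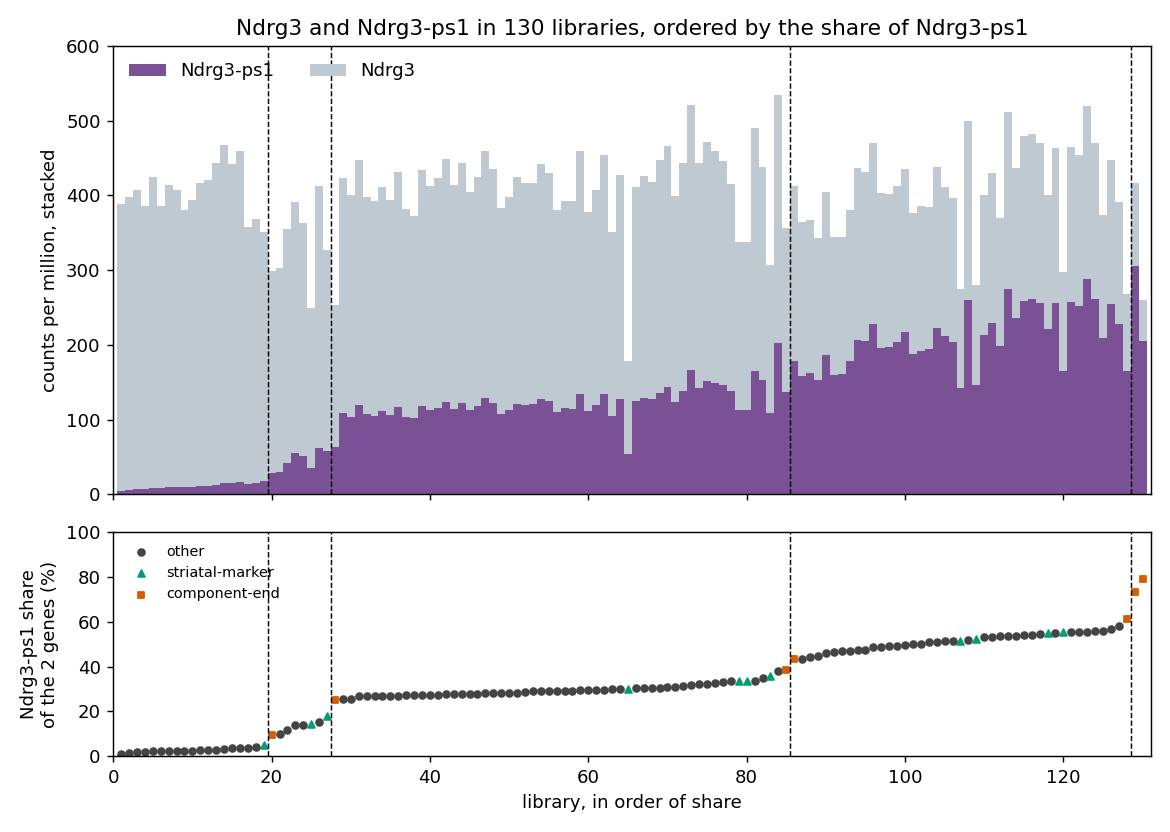
Top, CPM of Ndrg3-ps1 and Ndrg3 stacked for each of 130 libraries, so that the bar's height is the sum; bottom, the share of Ndrg3-ps1 in percent, with libraries ordered by it and marked by whether they stood apart. Dashed lines part the 5 share levels. The lower part of the bar ranges from 4.24 to 305 CPM and does not rise steadily in this order. The sums run from 179 to 534 CPM around a mean of 404 CPM.

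The share of Ndrg3-ps1 fell into more levels than its own value. A mixture on the logit of the share, chosen after the data were seen, had its lowest BIC with 5 components, the largest number tried. Share level 1 held 19 libraries at 1.09% to 4.98%, share level 2 held 8 at 9.35% to 17.7%, share level 3 held 58 at 25.2% to 38.3%, share level 4 held 43 at 43.3% to 61.3%, and share level 5 held 2, at 73.3% and 79.1%. Both libraries of share level 5 are among the 7 at the end of the component. So are the library just below that level, at 61.3%, and those on both sides of the border between share levels 3 and 4, at 38.3% and 43.3%. Without the 18 libraries the highest share was 58.2%.

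From share level 1 to 5, median Ndrg3-ps1 was 9.93, 46.4, 120, 206 and 255 CPM. Median Ndrg3 over the same levels was 397, 292, 298, 202 and 82.6 CPM. Median sums were 407, 341, 418, 405 and 338 CPM. The order of the first 2 series is partly set by the share itself, and the sums follow no such order. Share level 2 had a lower median sum than levels 1, 3 and 4, at 249 to 412 CPM over its 8 libraries. Without the 18 libraries its sums were 302 to 412 CPM (n = 5), against 358 to 468 CPM in share level 1 (n = 18), 351 to 534 CPM in share level 3 (n = 52) and 343 to 519 CPM in share level 4 (n = 37). These ranges overlapped.

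Within a share level the relation of the pair had the opposite sign. Pearson's r of the log2 values was 0.07 in share level 1 (n = 19), 0.59 in level 2 (n = 8), 0.73 in level 3 (n = 58) and 0.56 in level 4 (n = 43). A level with a narrow share holds the ratio of the genes nearly fixed, so a positive r is built into these values, and their p-values are not given as evidence. Grouping by the share therefore cannot show whether the negative relation lies between levels or within them. The high level defined by Ndrg3-ps1 alone holds libraries of 4 of the 5 share levels.

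The sum of both genes varied less than either member but was not constant. Over 130 libraries Ndrg3 was 271 ± 77.6 CPM, Ndrg3-ps1 133 ± 75.4 CPM and their sum 404 ± 57.9 CPM (SD, n = 130). The coefficient of variation was 28.6% for Ndrg3, 56.9% for Ndrg3-ps1 and 14.3% for the sum. Independent genes with these spreads would have a sum with an SD of 108 CPM. Without the 18 libraries the sum was 419 ± 41.0 CPM (SD, n = 112), a coefficient of variation of 9.79%. The least-squares slope of Ndrg3 on Ndrg3-ps1 was -0.73 ± 0.064 CPM per CPM (SE, n = 130, 95% interval -0.86 to -0.61), where -1 would leave the sum constant. Without the 11 libraries with striatal markers the slope was -0.78 (95% interval -0.89 to -0.67), and without the 18 it was -0.78 (-0.87 to -0.68). None of these intervals reached -1. They treat libraries as independent points around 1 line, although the libraries formed levels. Noise in Ndrg3-ps1 alone can make such a slope shallower, by an amount that was not measured. The source of the distance from -1 was not tested.

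**Figure D2:**
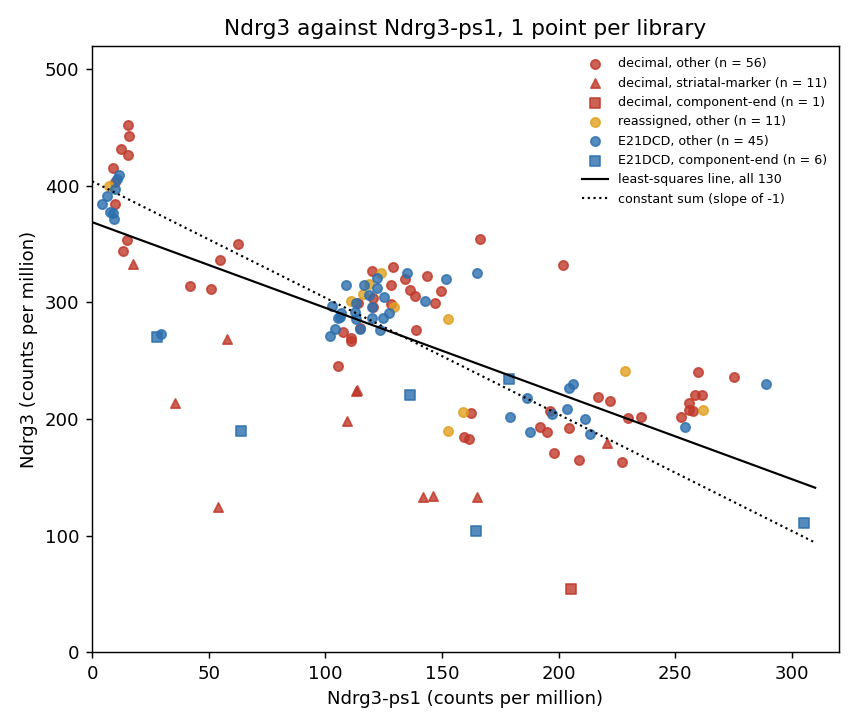
Ndrg3 against Ndrg3-ps1 in CPM, 1 point per library, coloured by kind of identifier and shaped by whether the library stood apart; the solid line is the least-squares fit and the dotted line a constant sum. Points run from 452 CPM of Ndrg3 at the upper left to 54.3 CPM at the lower right, and the lowest sum, 179 CPM, belongs to a library with striatal markers.

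Set against other genes of the same mean level, the spread of the sum was ordinary. The SD of log2(CPM + 1) was 0.47 for Ndrg3, 1.44 for Ndrg3-ps1 and 0.23 for the sum. Divided by the trend of the SD on the mean over 15150 genes with a mean of at least 1, these were 1.86, 5.88 and 0.91 times the trend. Only 13 of the 15150 genes had a higher ratio than Ndrg3-ps1, the value for which it was chosen. Without the 18 libraries, the SDs were 0.36, 1.49 and 0.14, and the sum was 0.99 times the trend.

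The libraries that stood apart had lower sums. The 11 libraries with striatal markers had 179 to 401 CPM (median 307), and the 7 at the end of the component had 253 to 416 CPM (median 299), against 302 to 534 CPM (median 416) in the other 112. Ndrg3 had medians of 198 and 189 CPM in these 2 sets, against 292 CPM in the other 112. Among the 7 was library decimal 15, with the lowest median-of-ratios factor (0.52), and sums by that scaling were not compared between the sets. The libraries with striatal markers spread over 4 of the 5 share levels, with 1, 2, 4, 4 and 0 libraries from level 1 to 5. Their shares were 4.98% to 55.4%. In a family of 32 relations of the members and their sum with summed counts and marker means, 16 passed with all libraries, 10 without the 11 and 7 without the 18 (permutation, two-sided, Benjamini-Hochberg). In the 112 libraries the log2 sum followed the interneuron marker mean (r = 0.40, rho = 0.41, adjusted permutation p = 0.00032 for both, r = 0.38 without the 2 farthest) and the glutamatergic marker mean (r = 0.29, adjusted permutation p = 0.0169; rho = 0.25, adjusted permutation p = 0.0541; r = 0.25 without the 2 farthest). Log2 Ndrg3 in these libraries fell with the astrocyte marker mean (r = -0.34, adjusted permutation p = 0.0032; rho = -0.28, adjusted permutation p = 0.0534; r = -0.29 without the 2 farthest). The other relations that passed by Pearson's r in the 112 did not pass by rho. They were Ndrg3 with the endothelial mean (r = -0.29, adjusted permutation p = 0.0169; rho = -0.21) and the interneuron mean (r = 0.25, adjusted permutation p = 0.0359; rho = 0.20), and Ndrg3-ps1 in its high level (n = 93) with the astrocyte mean (r = 0.28, adjusted permutation p = 0.0359; rho = 0.25) and the microglia mean (r = 0.28, adjusted permutation p = 0.0359; rho = 0.29). Opposite signs of r with Ndrg3 (n = 112) and with Ndrg3-ps1 in its high level (n = 93) were seen for every marker mean. They were not particular to astrocytes. The microglia mean had r = -0.24 with Ndrg3 and the endothelial mean r = 0.24 with Ndrg3-ps1, and neither passed. The 2 genes themselves had r = -0.69 in that level. Summed counts per library had r = -0.10 with the sum (rho = -0.15) and r = 0.00 with Ndrg3 (rho = 0.09) in the 112, and neither passed. The part of tissue composition in the level of the sum was not tested.

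Of the 2 loci between the members, LOC120101770 also had a separate set of high values. Its values on the log2(CPM + 1) scale were 0.00 to 6.23 with a median of 1.85, and a mixture gave levels around 0.60, 2.20 and 5.34 with 47, 67 and 16 libraries. The lowest level ended at 1.34 and the middle level ran from 1.42 to 3.76. These 2 levels adjoined, so their border is a cut of the mixture and no empty interval. The highest level held 12 decimal, 2 reassigned and 2 E21DCD libraries, at 4.65 to 6.23. By the share of Ndrg3-ps1, 7 of these 16 libraries were in share level 2, which has 8 libraries, 1 was in share level 3, and 8 were in share level 4, which has 43. Of the 19 libraries in share level 1, 18 were at the middle level of LOC120101770, as were 45 of the 58 in share level 3. Of the 43 in share level 4, 33 were at the lowest level of LOC120101770.

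The sum of Ndrg3 and Ndrg3-ps1 had a lower median where LOC120101770 was at its highest level, at 350 CPM in 16 libraries, against 416 CPM in the 67 at its middle level and 412 CPM in the 47 at its lowest. Libraries with striatal markers made up 4 of the 16, 3 of the 67 and 4 of the 47. Those at the end of the component made up 0 of the 16, 6 of the 67 and 1 of the 47. The medians were not computed without these libraries. In share level 4 the median log2 sum was 8.47 in the 8 libraries at the highest level of LOC120101770 and 8.75 in the 33 at its lowest, with overlapping ranges of 8.11 to 8.65 and 8.13 to 9.02, and with 1 of the 8 and 3 of the 33 having striatal markers. This difference was chosen after the values were seen and was not tested. With LOC120101769 and LOC120101770 added to the sum these medians were 8.62 and 8.80. Over all 130 libraries the SD of the log2 sum was 0.20 for the 4 genes and 0.23 for the members alone. LOC120101769 varied more than genes of its level, with an SD of 0.82 on the log2 scale, or 3.09 times the trend, but its correlation with Ndrg3-ps1 was 0.02. Where loci have near-identical transcripts, the division of reads between them is uncertain. The start-site windows cover mostly untranscribed bases and do not show how alike the transcripts of the 4 loci are, and the division of reads between them was not tested.

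Over the 130 libraries, pooled across levels and given as a description, the gene least like Ndrg3-ps1 among the 15150 genes tested was Ndrg3 (r = -0.61, and -0.76 without the 18 libraries), followed by LOC120101770 (-0.39), Trpc4ap (-0.32), which encodes a protein associated with the TRPC4 channel, Gss (-0.31), which encodes glutathione synthetase, and Gdpd2 (-0.29). The first 4 lie on chromosome 3, with Trpc4ap 1.27 Mb and Gss 1.39 Mb from Ndrg3-ps1. The genes most like Ndrg3-ps1 reached only 0.26 to 0.28: Ankdd1b, Krt42, Ralb, Crem and Rsph6a, none of them on chromosome 3. Leaving out the pair, 3 of 15148 genes had an r beyond 0.3 in either direction with Ndrg3-ps1, against 5897 with Ndrg3. Over all 130 libraries the profile of Ndrg3-ps1 was in this sense shared with few genes. These counts were not made without the 18 libraries, where r of Ndrg3 with the genes most like it was 0.19 to 0.35.

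**Figure D3:**
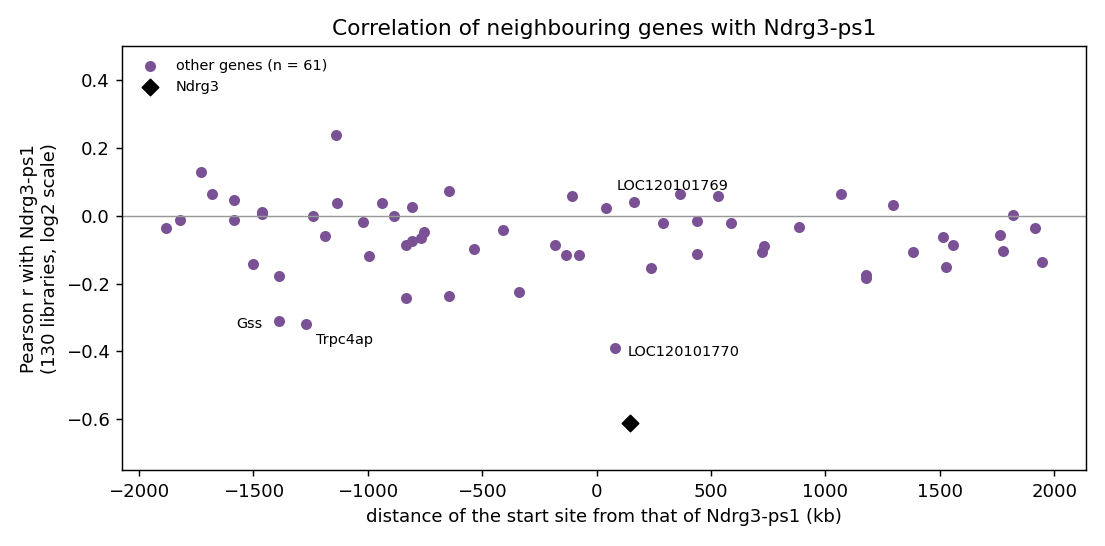
Pearson r with Ndrg3-ps1 over 130 libraries for genes within 2 Mb, against the distance of their start site in kb; the diamond is Ndrg3 at -0.61. The 61 other genes lie between -0.39 and 0.24, and 3 of them lie below -0.3.

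The genes most like Ndrg3 were Lclat1, an acyltransferase of cardiolipin metabolism (r = 0.62), Drp2, a dystrophin-related protein (0.62), Cdh10, a cadherin (0.61), Cds1, an enzyme of phospholipid synthesis (0.61), and Osbpl10, an oxysterol-binding protein (0.61). Without the 18 libraries these were 0.19 to 0.35. Least like it after Ndrg3-ps1 were Anapc13 (-0.57), LOC103694460 (-0.57), LOC100360522 (-0.56) and Rplp1, a ribosomal stalk protein (-0.55), which were -0.26 to -0.24 without the 18. Only the relation with Ndrg3-ps1, among these 10, was larger in size in the 112 libraries than in all 130. All 10 were ranked over the 130 libraries and not again in the 112. Smaller values in the 112 are therefore partly set by that choice. Within 2 Mb of Ndrg3-ps1 the 61 other genes had r of -0.39 to 0.24 with it. The nearest genes outside the 4 loci on either side had values close to 0: r with Ndrg3-ps1 was -0.12 for Sla2, an adaptor protein of lymphocyte signalling, and 0.04 for Dsn1, a kinetochore protein.

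The kinds of identifier were compared across all 15150 genes with limma. Ndrg3 was 7.97 ± 0.52 (SD, n = 68) in the decimal series, 8.10 ± 0.33 in the reassigned libraries (n = 11) and 8.08 ± 0.41 in the E21DCD series (n = 51), on the log2(CPM + 1) scale. In CPM the lowest, median and highest values were 54.3, 268 and 452 in the decimal series, 190.1, 297 and 399.6 in the reassigned libraries, and 104, 287 and 409 in the E21DCD series. The 3 ranges overlapped over most of their length. The decimal series minus the E21DCD series gave -0.11 ± 0.086 (SE, limma, Benjamini-Hochberg adjusted p = 0.33, 95% interval -0.28 to 0.06). The reassigned libraries minus the E21DCD series gave 0.02 ± 0.15 (limma adjusted p = 1.0, 95% interval -0.28 to 0.32). In order of mean level the reassigned libraries, the E21DCD series and the decimal series did not differ beyond their spread.

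Ndrg3-ps1 was 6.68 ± 1.37 (SD, n = 68) in the decimal series, 6.85 ± 1.33 in the reassigned libraries (n = 11) and 6.46 ± 1.55 in the E21DCD series (n = 51). The lowest, median and highest values were 9.01, 137 and 275 CPM in the decimal series, 7.19, 130 and 262 CPM in the reassigned libraries, and 4.24, 120 and 305 CPM in the E21DCD series. Each kind of identifier thus held libraries at the high level and at the low level, although only 1 reassigned library was at the low level. The decimal series minus the E21DCD series gave 0.23 ± 0.26 (SE, limma adjusted p = 0.54, 95% interval -0.29 to 0.74), and the reassigned libraries minus the E21DCD series 0.39 ± 0.47 (limma adjusted p = 1.0, 95% interval -0.53 to 1.32). Of all genes, 29.1% of those tested passed between the decimal and the E21DCD series (4412 genes, 15.9% higher and 13.2% lower in the decimal series), 9.9% passed without the 11 libraries with striatal markers, and 34.8% passed without the 18 (5259 of 15132 genes). Between the reassigned libraries and the E21DCD series 0 genes passed in limma (0.0%), and 396 had an unadjusted p under 0.05; with no filter on low values 8 passed. Neither member passed in either comparison.

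The share levels were spread over the kinds of identifier. Of the decimal series 14.7%, 8.82%, 36.8%, 38.2% and 1.47% of libraries were in share levels 1 to 5. Of the reassigned libraries these percentages were 9.09%, 0.0%, 54.5%, 36.4% and 0.0%. Of the E21DCD series they were 15.7%, 3.92%, 52.9%, 25.5% and 1.96%. The log2 sum of the pair was 8.63 ± 0.27 in the decimal series and 8.65 ± 0.18 in the E21DCD series (SD, n = 68 and 51), a difference of -0.02 (permutation p = 0.691, two-sided). Without the 11 libraries it was 0.06 (permutation p = 0.0865), and without the 18 it was 0.03 (permutation p = 0.224). LOC120101770 was 2.24 ± 1.75 in the decimal series and 1.67 ± 1.13 in the E21DCD series, a difference of 0.56 ± 0.28 that did not pass (SE, limma adjusted p = 0.11).

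**Figure D4:**
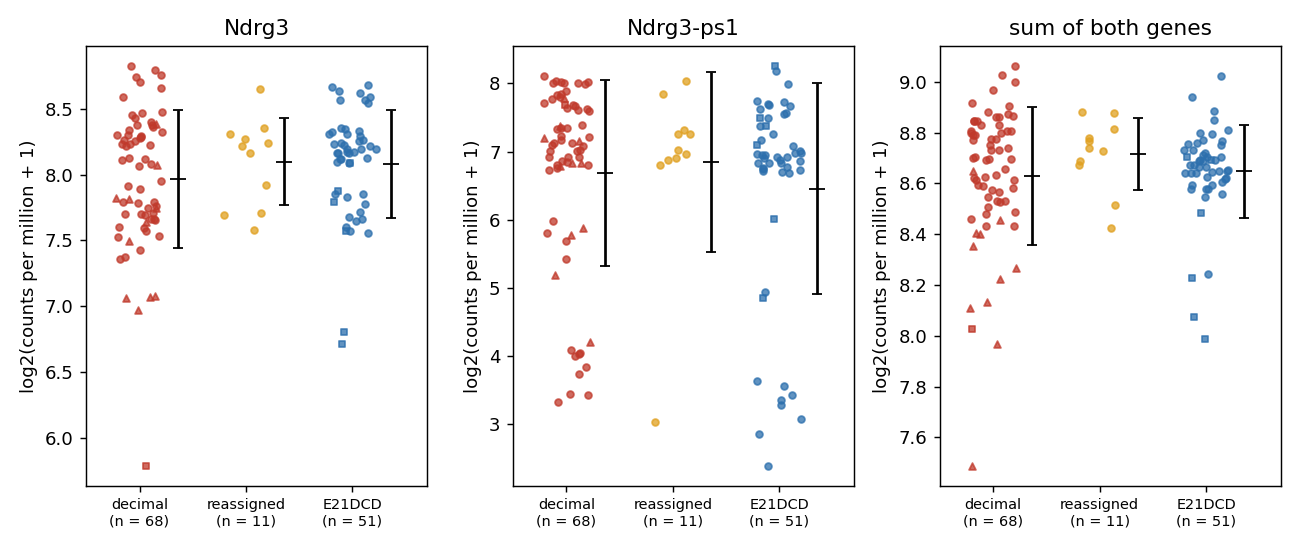
Ndrg3, Ndrg3-ps1 and their sum in log2(CPM + 1) by kind of identifier, 1 point per library, with triangles for libraries with striatal markers, squares for those at the end of the component, and the mean ± SD at the right of each group. The groups overlap in all 3 panels. Ndrg3-ps1 has a lower set of libraries in the decimal and E21DCD series and 1 low library among the reassigned.

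Among the other members of the family, Ndrg1 and Ndrg2 passed between the decimal and E21DCD series. Ndrg1, known in myelinating cells, was 6.44 ± 0.60 in the decimal series and 5.93 ± 0.44 in the E21DCD series, and rose by 0.51 ± 0.095 in the decimal series (SE, limma adjusted p = 3.17e-05); without the 11 libraries with striatal markers the difference was 0.33 (limma adjusted p = 0.00533). Ndrg2, known as an astrocyte gene, was 9.68 ± 0.25 in the decimal series and 9.52 ± 0.26 in the E21DCD series, and rose by 0.16 ± 0.046 (limma adjusted p = 0.00675). Its difference was 0.14 without the 11 libraries (limma adjusted p = 0.0473) and 0.18 without the 18 (limma adjusted p = 0.000637). Ndrg4, known in neurons and heart, was 10.80 ± 0.31 and 10.80 ± 0.13 in the decimal and E21DCD series (difference -0.01 ± 0.045, limma adjusted p = 0.945; -0.07 without the 18 libraries, limma adjusted p = 0.0214). The SD of these genes was 2.39, 1.03 and 0.96 times the trend, below the 5.88 times of Ndrg3-ps1.

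A list of 20 genes held those of oxygen sensing, lactate handling and Raf-ERK signalling, and Sgk1, a glucocorticoid-regulated kinase known to phosphorylate NDRG1. All were tested, and 5 were higher and 5 lower in the decimal series than in the E21DCD series, against the 29.1% of all genes that passed. The median difference was 0.02 over the list and 0.01 over all genes tested. Egln1, which encodes the main prolyl hydroxylase of oxygen sensing, was higher by 0.17 ± 0.054 (SE, limma adjusted p = 0.00925), and Vhl, the recognition subunit that follows it, was higher by 0.11 ± 0.035 (limma adjusted p = 0.0142). Egln2, a related hydroxylase, was higher by 0.09 ± 0.032 (limma adjusted p = 0.0205), and did not pass with median-of-ratios scaling (0.08, limma adjusted p = 0.105). Sgk1 had the largest rise of the list, 0.34 ± 0.11 (limma adjusted p = 0.00941); it was 0.18 without the 11 libraries (limma adjusted p = 0.248) and 0.22 without the 18 (limma adjusted p = 0.0681). Egln3, another hydroxylase of the family, had the largest fall, -0.34 ± 0.082 (limma adjusted p = 0.00103); it was -0.12 without the 11 libraries (limma adjusted p = 0.0909) and -0.04 without the 18 (limma adjusted p = 0.43). The others that passed were Slc16a1, a lactate transporter (0.13), and, lower, Ldha, a lactate dehydrogenase subunit (-0.19), Slc16a7, another monocarboxylate transporter (-0.25), Araf, a Raf kinase (-0.10), and Mapk3, which encodes ERK1 (-0.14). Hif1a, the hypoxia-inducible factor, had a difference of -0.01 and did not pass. Without the 11 libraries with striatal markers 0 of the 20 were higher (Egln1 had 0.08 and Vhl 0.05) and 1 was lower, against 9.9% of all genes. That gene was Map2k1, which encodes the ERK kinase MEK1 (-0.15 ± 0.048, SE, limma adjusted p = 0.0339), chosen after its values were seen. Without the 18 libraries 4 were higher and 4 lower, against 34.8% of all genes, and Egln1, Egln2, Vhl and Slc16a1 were the higher ones. Between the reassigned libraries and the E21DCD series 0 of the 20 passed.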

How the data were processed

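RNA of the prelimbic cortex was sequenced. Estimated counts come from kallisto 0.48, per the submitters' processing notes, a tool that divides reads that fit several transcripts between them by estimated abundance. The deposited unit is log2, of the authors' estimated count per gene plus 1, without scaling for library size. The 130 columns were turned back to estimated counts, each library was scaled to 1000000 (CPM), and levels are log2(CPM + 1). All columns were used. The build is not named in the sources used here; 99.8% of the symbols were found in the GRCr8 RefSeq table, and their positions matched its gene ends in 100% of cases. Sequences are from the RefSeq promoter table, and no genome or protein sequence was used here.

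Depth was 15.12 to 55.95 summed counts per library in units of 1000000. The table gives no repeat library of an animal, and with 1 library per identifier p-values measure the spread between these libraries, animal and technical together.

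Genes with a mean of at least 1 (15150) entered 1 model with 3 group means in limma 3.58.1 (R 4.3.3, with a trend of the variance; two-sided p, adjusted by Benjamini-Hochberg, called under 0.05). The sum was compared with 100000 permutations. Correlations had 100000 permutations, adjusted within their family. The trend of the SD on the mean was a lowess curve (frac 0.3). Numbers were computed in Python 3.11.15 with numpy 2.4.6, pandas 2.3.3, scipy 1.17.1 and statsmodels 0.14.6, and plots with matplotlib 3.10.9. The methods were tested on simulated data.

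Both genes, the gene lists, the tests and the sets of libraries were chosen with earlier results of these data known. Named genes were the members, the Ndrg family, the first 4 tested members of the signalling list and its largest change in each direction, the 5 genes with the highest and the 5 with the lowest r with each member, and the 5 nearest genes on each side; others were chosen after their values were seen. Alternatives were median-of-ratios scaling, a mean of at least 3 or no filter, a pseudocount of 0.1, depth as a covariate, fits with only the groups compared, and subsets of libraries; the share levels, the 4-gene sum and leaving out 18 libraries were added after the data were seen.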

Additional observations from a re-analysis of the deposited data

How the results depend on the processing

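No paired analysis was possible because the columns carry no replicate numbers shared between the kinds of identifier. Neither member passed in either comparison under any alternative run. The slope of Ndrg3 on Ndrg3-ps1 was -0.70 with median-of-ratios scaling. Without the 11 libraries with striatal markers, 1497 genes passed between the decimal and the E21DCD series, against 4412; the difference of the log2 sum was 0.0608, against -0.02; its SD was 0.180, against 0.231; and 10 of 32 relations with depth and marker means passed, against 16. Without these and the 7 libraries at the end of the component, 5259 genes passed, the difference of the log2 sum was 0.0348, its SD 0.141, the relations that passed numbered 7, and r within the low level of Ndrg3-ps1 was -0.315. With both neighbouring loci added, the difference of the log2 sum was 0.0064 and its SD 0.196. With levels taken from the share, r was 0.0687 in the first and 0.56 in the highest level of at least 6 libraries, where the narrow share builds in a positive sign. With no filter, 8 genes passed between the reassigned libraries and the E21DCD series, against 0.

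Several small differences that did not pass changed sign. Between the reassigned libraries and the E21DCD series, median-of-ratios scaling gave -0.0029 for Ndrg3, -0.0003 for Ndrg1 and -0.0082 for Egln3, and leaving out the 18 libraries gave -0.0624 for Ndrg3, 0.13 for LOC120101769, 0.0196 for Ndrg2 and 0.0408 for Egln1. Between the decimal and the E21DCD series, LOC120101769 had 0.12 without the 11 libraries and 0.25 without the 18, and Ndrg4 had 0.0025 with depth as a covariate. The cause of these changes was not tested. The lowest level of LOC120101770 averaged 0.60 on the log2(CPM + 1) scale.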
